A study of Mus musculus with 5 samples.

Results

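The nuclear genes for subunits of the respiratory chain and of the ATP synthase were examined in mouse embryonic stem cells homozygous for a Trip12 mutation and in wild-type cells. Members were taken by gene symbol, by a rule that uses no measured value. A probe set was taken where its only annotated symbol began with Nduf followed by a, b, c, s or v and a digit, with Uqcr, with Atp5 or with Cox followed by a digit from 4 to 8, or was Sdha, Sdhb, Sdhc or Sdhd. This gave 164 probe sets of 81 genes, out of 18193 genes on the array, and each gene was represented by the probe set that was brightest on average. Of the 81 genes, 35 belonged to complex I, 4 to complex II, 8 to complex III, 17 to complex IV and 17 to complex V. The rule does not take Ndufab1 and Cyc1, which encode subunits under other names. Ndufa11 and Ndufs6 are absent too, because their probe sets carry several symbols. The rule takes Ndufa4l2, a relative of Ndufa4 that is not an established subunit of complex I, and Cox7a2l, which is known as a factor that joins complexes III and IV.

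Complexes I to IV sit in the inner mitochondrial membrane and pass electrons from NADH and succinate to oxygen, pumping protons at complexes I, III and IV. Complex V, the ATP synthase, lets the protons back through a ring of c subunits and a rotating stalk and makes ATP in its F1 head. Most subunits are encoded in the nucleus and imported, a core is encoded in mitochondrial DNA, and embryonic stem cells are known for drawing much of their ATP from glycolysis.

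Total RNA was hybridised to Affymetrix arrays, 3 from Trip12 mut/mut cells and 2 from wild-type (WT) cells, all of the E14 embryonic stem cell line kept on mouse embryo fibroblast feeder layers in medium with leukaemia inhibitory factor. Trip12 encodes a ubiquitin ligase. The sources used here do not give the nature of the mutation, the origin of the replicates or whether feeder cells were removed before extraction, so the spread between arrays of a group may be partly technical, and p-values then measure only that spread. The deposited values are log2 signals after RMA (robust multi-array average), in which a step of 1 is a 2-fold change. RMA gives the arrays nearly the same overall distribution, and the median over all probe sets lay between 5.51 and 5.55 on every array, so a change common to all transcripts is out of reach of these values. In RNA of a whole culture, fewer cells of a type and less RNA per cell cannot be told apart.

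The array labelled Trip12 mut/mut replicate 1 stood apart from the other mutant arrays. Over the 81 genes, its log2 differences from the WT arrays had SDs of 0.0626 and 0.0514, against 0.0755 between both WT arrays. Replicate 2 differed from the WT arrays with SDs of 0.305 and 0.307, replicate 3 with SDs of 0.184 and 0.166, and replicates 2 and 3 differed from each other with an SD of 0.287. Some deposited values are identical on several arrays, such as Sdha at 11.0607 on mutant replicate 3 and both WT arrays. Ndufa7 has 12.2569 on mutant replicates 1 and 3 and WT replicate 2. Small spreads and equal readings between arrays need therefore not be measured agreement. Trip12 itself read 10.18, 12.09 and 12.57 on Trip12 mut/mut replicates 1, 2 and 3, against 10.17 and 10.25 on the WT arrays. The mutation is not described, so this probe set does not check the labels, but replicate 1 lay with WT here too. Each comparison is therefore given over all 5 arrays and without this array. The array was singled out by its values, and leaving it out can widen the differences and narrow the spread. The p-values and counts without it are therefore descriptive only. Embryonic stem cell markers were bright on all arrays: Pou5f1 read 12.46, 12.42 and 12.25 in Trip12 mut/mut cells and 12.45 and 12.48 in WT cells.

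No member gene passed the test. Over all 5 arrays, 0 of 81 members had a Benjamini-Hochberg adjusted p below 0.05 in limma, as did 0% of all 18193 genes. An unadjusted p below 0.05 was found for 0 members, against 214 of all 18193 genes, a share so small that 0 of 81 says little. The smallest adjusted p of a member was 0.748. Without the array labelled replicate 1 and without dim genes (those with fewer than 2 arrays above the median of all probe sets, 5.52), 0 of the 78 members tested passed in limma, where 4.64% of all 11626 genes tested did. In that comparison 8 of the 78 members (10.3%) had an unadjusted p below 0.05, against 28.8% of all genes, and the smallest adjusted p was 0.0874, for Cox6b2. The 3 members not tested there, Ndufb4, Cox4i2 and Cox8b, were dim. For Ndufb4 this describes the only probe set used, as its others carry several symbols.

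The intervals give a range for the difference of each member, for 1 probe set per gene and without adjustment over genes. They rest on the spread between arrays, which may be partly technical, so they do not bound the genotype difference. Over 5 arrays, the 95% intervals of the log2 difference lay between -1 and 1, that is within 2-fold either way, for 79 of 81 members, the exceptions being Atp5g1 and Cox7b2. They lay between -0.5 and 0.5 for 60 of 81 members. Without the array labelled replicate 1 and without dim genes, the counts were 74 and 57 of 78 members. Over all genes the counts were 16852 and 11868 of 18193 over 5 arrays, and 10604 and 5668 of 11626 in the other comparison. A fitted 2-fold difference was reached by 0 of 81 members. It was reached by 41 of all 18193 genes over 5 arrays and by 165 of them without that array, dim genes kept. These shares are so small that 0 of 81 says little about the members. The median half-width of the interval was 0.229 for the members and 0.285 for all genes.

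The members were split evenly by sign, with 40 higher and 41 lower in Trip12 mut/mut cells by the fitted difference, and their median difference was -0.0010, beside 0.019 for all genes. By complex, the median log2 difference was -0.0028 for complex I, 0.0025 for complex II, 0.032 for complex III, 0.013 for complex IV and -0.076 for complex V. Without the array labelled replicate 1 the medians were 0.0046, 0.0030, 0.047, -0.0015 and -0.11 in that order, beside 0.021 for all genes. Complex V had the lowest median in both, but not when replicate 3 was left out, where its median was -0.0099 and that of complex IV was -0.042.

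**Figure D1:**
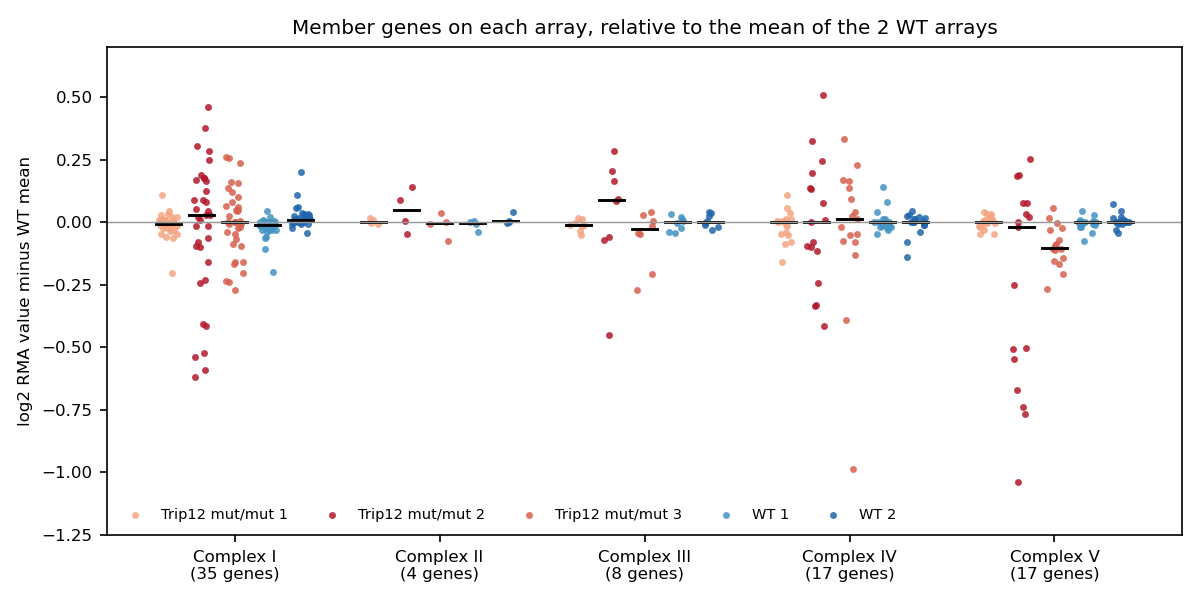
Each point is 1 of the 81 genes on 1 array, plotted as its log2 value minus the mean of both WT arrays, by complex. Bars are medians. Points of the array labelled Trip12 mut/mut replicate 1 lie as close to 0 as those of the WT arrays, and those of replicate 2 spread from -1.04 (Atp5g1) to 0.51 (Cox6b2).

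The spread of the members differed by array. A deviation of more than 0.2 from the WT mean was found for 1 of 81 members on replicate 1 (Ndufs5, at -0.20), for 32 (39.5%) on replicate 2 and for 15 (18.5%) on replicate 3. All genes exceeded 0.2 in 43.3% of cases on replicate 2 and in 36.8% on replicate 3, so the members had the lower share on both, with the wider gap on replicate 3. On replicate 2, 21 members were below -0.2 and 11 above 0.2, which is 25.9% of members below, against 15.9% of all genes and 20.9% of the genes with a mean not below 5.52. On replicate 3 the order was the other way, with 12.3% of members below -0.2, against 16.1% of all genes and 17.5% of those with a mean not below 5.52. Of the 17 complex V genes, 8 (47.1%) were below -0.2 on replicate 2 and 2 (11.8%) on replicate 3.

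All 3 Trip12 mut/mut arrays lay above both WT arrays for 2 of 81 members (2.47%), Ndufa2 and Ndufa8, where 5.73% of all genes did. All 3 lay below for 6 members (7.41%), Atp5a1, Atp5e, Ndufa6, Ndufb5, Uqcrc2 and Uqcrq, where 6.29% of all genes did. Taking replicates 2 and 3 alone, 15 members (18.5%) lay above both WT arrays and 20 (24.7%) below, where 26.7% and 17.5% of all genes did. Genes of complex V made up 8 of those 20, namely Atp5a1, Atp5b, Atp5c1, Atp5e, Atp5g1, Atp5g3, Atp5o and Atp5pb.

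**Figure D2:**
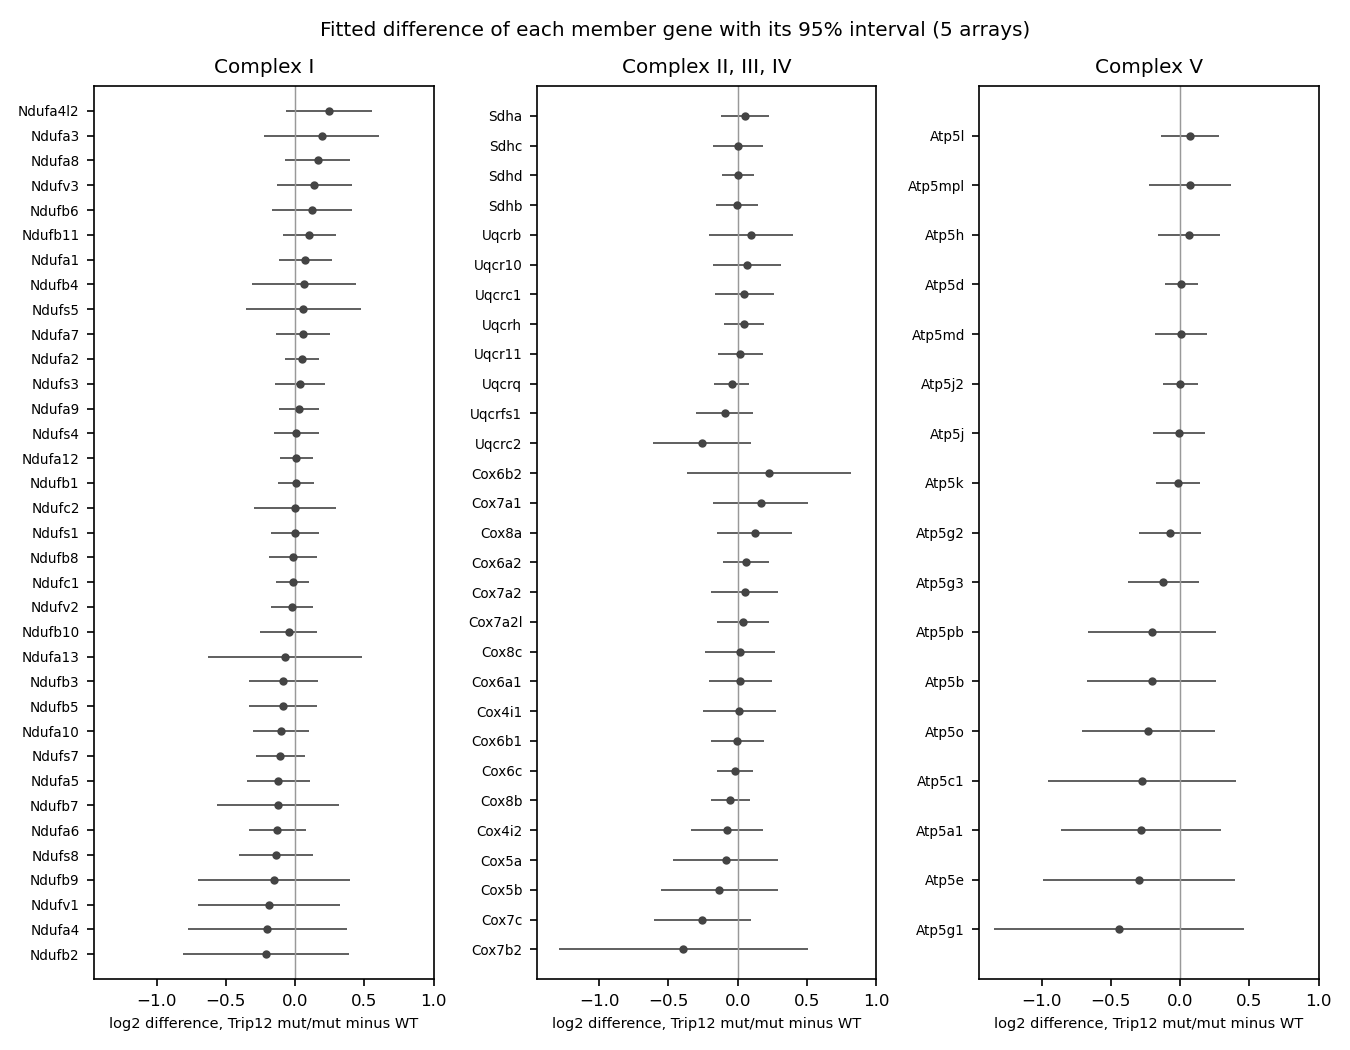
Points are the fitted log2 differences, Trip12 mut/mut minus WT, of the 81 genes over all 5 arrays, and lines their 95% intervals from limma. Every interval includes 0, and the widest are those of Atp5g1 and Cox7b2.

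Complex V held the most negative differences among members with a mean not below 5.52. With the brightest probe set of each gene they were in genes of the catalytic head, the stalks and the ring of c subunits, but other bright probe sets of the accessory genes Atp5j2 and Atp5k read as low on replicate 2, so this order by position depends on the choice of probe set. The grouping by position in the enzyme is textbook knowledge, made after the values were seen, and the medians by position use the brightest probe set. The 5 genes of the F1 head and central stalk had a median deviation from WT of -0.67 on replicate 2 and -0.11 on replicate 3. The 3 genes for c subunits had medians of -0.25 and -0.21 on these arrays, and the 4 of the peripheral stalk -0.21 and -0.10. The 5 accessory genes of the membrane part (Atp5j2, Atp5k, Atp5l, Atp5md and Atp5mpl) had medians of 0.08 and -0.03. On mutant replicate 1 all these medians lay within 0.02 of WT.

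Atp5a1, which encodes the alpha subunit of the head, read 12.77, 12.12 and 12.62 on Trip12 mut/mut replicates 1, 2 and 3, against 12.78 and 12.80 on the WT arrays. All mutant arrays were lower, replicate 1 by less than both WT arrays differ from each other. The fitted difference was -0.29 (SE 0.22, limma adjusted p = 0.748), or -0.42 without replicate 1 (limma adjusted p = 0.249) and -0.09 without replicate 2. Atp5b, for the catalytic beta subunit, read 13.05, 12.52 and 12.86 in Trip12 mut/mut cells, against 13.01 and 13.03 in WT cells. Replicates 2 and 3 were below WT and replicate 1 above it, so the groups overlapped, with a difference of -0.21 (SE 0.17).

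Atp5c1, for the gamma subunit that turns inside the head, read 12.46, 11.71 and 12.34 in Trip12 mut/mut cells, against 12.43 and 12.47 in WT cells. On replicate 2 its signal was 0.599 times the WT mean and on replicate 3 it was 0.927 times that mean. Atp5e, for the small epsilon subunit of the central stalk, read 11.25, 10.53 and 11.23 in Trip12 mut/mut cells, against 11.26 and 11.35 in WT cells. All mutant arrays were again lower, but replicates 1 and 3 were within 0.03 of the lower WT array, and the difference of -0.30 (SE 0.26) was -0.06 without replicate 2. Atp5d, for the delta subunit beside it, read 12.43, 12.44 and 12.42 in Trip12 mut/mut cells and 12.42 on both WT arrays. With this brightest probe set no array stood out in this 1 gene of the head and stalk. The second probe set of Atp5d read 11.65, 11.56 and 11.60 in Trip12 mut/mut cells, against 11.64 and 11.69 in WT cells. Replicates 2 and 3 were below both WT arrays there, by small steps.

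The c subunit is encoded by 3 genes, Atp5g1, Atp5g2 and Atp5g3, whose mature proteins are the same and whose import signals differ. Atp5g1 read 11.47, 10.44 and 11.21 on Trip12 mut/mut replicates 1, 2 and 3, against 11.41 and 11.56 on the WT arrays. Replicate 2 was at 0.487 times the WT mean, replicate 3 at 0.831 times, and replicate 1 between the WT arrays. The mean was 11.04 ± 0.54 in Trip12 mut/mut cells (SD, n = 3) and 11.48 ± 0.10 in WT cells (SD, n = 2), and the difference of -0.44 (SE 0.34, 95% interval -1.34 to 0.46) was the most negative of the 81. It was -0.65 without replicate 1 and -0.14 without replicate 2, and the limma adjusted p was 0.239 without replicate 1 and dim genes.

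Atp5g3 read 13.36, 13.08 and 13.19 in Trip12 mut/mut cells, against 13.34 and 13.32 in WT cells, and Atp5g2 read 11.70, 11.69 and 11.50, against 11.69 and 11.72. In these 2 genes replicate 3 was also below both WT arrays, by 0.13 or more, while replicate 1 was at the WT level. In the peripheral stalk, which holds the head still, Atp5o read 12.09, 11.57 and 12.01 in Trip12 mut/mut cells, against 12.15 and 12.09 in WT cells, and Atp5pb, for subunit b, read 12.60, 12.09 and 12.49, against 12.59 on both WT arrays. Atp5h, for subunit d of the same stalk, ran the other way, at 12.34, 12.57 and 12.45 in Trip12 mut/mut cells and 12.38 and 12.39 in WT cells.

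Atp5h, Atp5l and Atp5mpl had the most positive differences of complex V, at 0.07 each. Atp5l, for subunit g, which is known for its part in joining ATP synthases into dimers, read 12.36, 12.55 and 12.37 in Trip12 mut/mut cells, against 12.36 and 12.35 in WT cells. Atp5mpl, for a small proteolipid of the membrane part, read 11.79, 12.06 and 11.78, against 11.85 and 11.76. In both genes replicate 2 was the highest of the 5 arrays, and the other mutant arrays were at the level of WT.

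**Figure D3:**
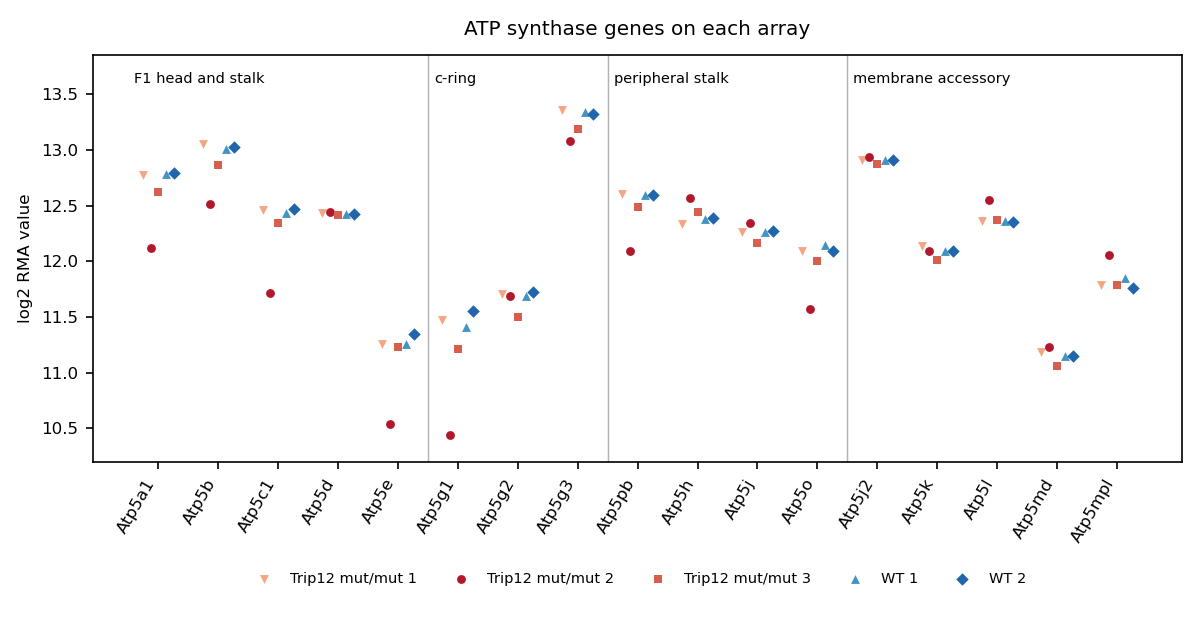
Log2 RMA values of the brightest probe set of the 17 complex V genes on each of the 5 arrays, grouped by place in the enzyme; levels of different genes are not comparable. Replicate 2 of Trip12 mut/mut lies 0.50 or more below the WT mean in Atp5a1, Atp5b, Atp5c1, Atp5e, Atp5g1, Atp5o and Atp5pb, and at or above it in the accessory genes, of which Atp5j2 and Atp5k have another bright probe set, not drawn, at -0.66 and -0.63.

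The low readings of replicate 2 depended on the probe set in several of these genes. The second probe set of Atp5c1 was 0.12 above the WT mean on replicate 2, where the first was 0.74 below it. For Atp5a1 the deviations of its 2 brighter probe sets were -0.67 and 0.00 on replicate 2 and -0.17 and -0.21 on replicate 3, and for Atp5o they were -0.55 and 0.07 on replicate 2. The 2 probe sets of Atp5pb were alike, at -0.51 and -0.56, and Atp5h had 0.18 and -0.44. Among the accessory genes, the 2 bright probe sets of Atp5j2 deviated by 0.03 and -0.66 on replicate 2, and those of Atp5k ran from -0.63 to 0.01. The low probe sets of Atp5j2 and Atp5k lay between those of the head and stalk genes Atp5e, at -0.77, and Atp5b, at -0.50.

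Over the 43 members with at least 2 probe sets above the median of all probe sets, probe sets of a gene differed by more than 0.2 in their deviation from WT in 2 genes on replicate 1, 26 genes (60.5%) on replicate 2 and 5 genes (11.6%) on replicate 3. The same shares over 4934 genes were 10.9% on replicate 1, 69.9% on replicate 2 and 39.5% on replicate 3. Between both WT arrays 0 members did so, against 16.2% of those genes. On replicate 2, 9 members (20.9%, against 21.5% of those 4934 genes) had probe sets beyond 0.1 in opposite directions: Ndufa7, Ndufb6, Ndufb7, Ndufc2, Uqcr10, Cox7a2, Cox8a, Atp5c1 and Atp5h. No member did on replicates 1 and 3, against 2.21% and 5.37% of those 4934 genes. These 43 genes were chosen by brightness and not by their differences.

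Technical readings moved with the same array. On Trip12 mut/mut replicates 1, 2 and 3 the 9 first-version probe sets for the bacterial control transcripts bioB, bioC, bioD and cre averaged 10.4, 9.34 and 10.5, against 10.4 and 10.5 on the WT arrays, so that replicate 2 was 1.09 below the WT mean. The 9 redesigned probe sets for the same transcripts averaged 10.8, 10.8 and 10.9, against 10.8 on both WT arrays. The 3′ minus 5′ signal of Gapdh, a reading of RNA integrity, was 0.044, 0.17 and 0.040 in Trip12 mut/mut cells, against 0.032 and 0.040 in WT cells, and that of Actb was 0.79, 0.71 and 0.73, against 0.79 and 0.76. Their part in the readings of replicate 2 was not tested.

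**Figure D4:**
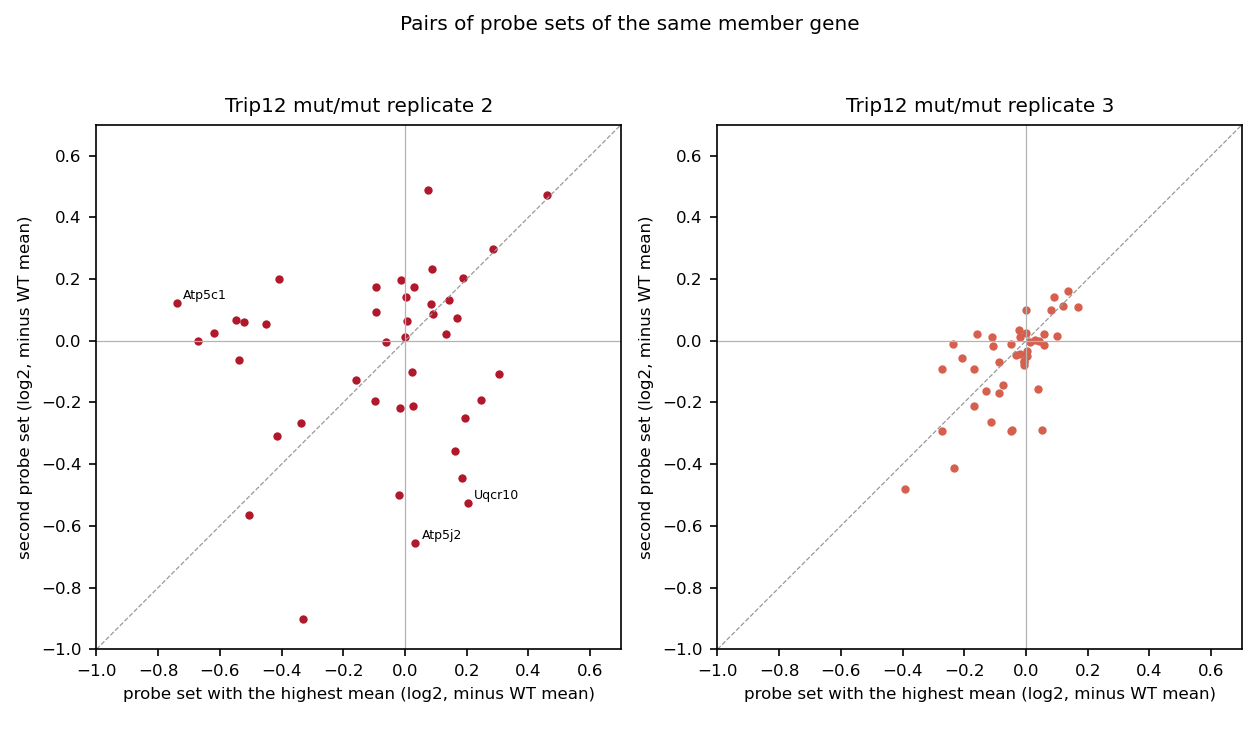
For the 43 members with at least 2 probe sets above the median of all probe sets, the deviation of the brightest probe set from the WT mean (log2, horizontal) is set against that of the second (vertical), on Trip12 mut/mut replicates 2 and 3. Points off the dashed line are genes whose probe sets differ. On replicate 2 Atp5c1 lies at -0.74 and 0.12, and on replicate 3 the points lie closer to the line.

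Complex I takes electrons from NADH. The 6 nuclear core genes among the members (Ndufs1, Ndufs3, Ndufs7, Ndufs8, Ndufv1 and Ndufv2) had a median deviation from WT of -0.03 on replicate 2 and -0.08 on replicate 3. The medians of the other 29 genes, supernumerary genes together with Ndufa4 and Ndufa4l2, were 0.03 and 0.0029. Ndufv1, for the subunit that binds NADH, read 10.93, 10.41 and 10.93 in Trip12 mut/mut cells, against 10.93 and 10.97 in WT cells. Only replicate 2 stood apart there, by -0.54 with the brightest probe set and -0.06 with the second, and the difference of -0.19 (SE 0.19) had a limma adjusted p of 0.751. Ndufs8, an iron-sulphur subunit chosen after its values were seen, was lower on both replicates, at 11.45, 11.28 and 11.17 in Trip12 mut/mut cells, against 11.44 on both WT arrays, and all its 6 probe sets were lower on replicates 2 and 3.

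Ndufb2, a supernumerary subunit of the membrane arm, had the most negative difference of complex I, at -0.21 (SE 0.22). It read 11.17, 10.56 and 11.17 in Trip12 mut/mut cells, against 11.16 and 11.19 in WT cells, so the difference came from replicate 2 alone, where its second probe set deviated by 0.02. Ndufa4, first assigned to complex I and now counted with complex IV, had a similar pattern, at 12.31, 11.69 and 12.24 in Trip12 mut/mut cells and 12.27 and 12.29 in WT cells. Its relative Ndufa4l2, known as a gene induced in low oxygen, had the most positive difference of complex I, at 0.25 (SE 0.12, limma adjusted p = 0.748). It read 7.48, 7.75 and 7.63 in Trip12 mut/mut cells, against 7.27 and 7.48 in WT cells, and the WT arrays differed by 0.22 from each other.

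Ndufa3, a small supernumerary subunit, read 11.54, 12.01 and 11.66 in Trip12 mut/mut cells, against 11.54 and 11.56 in WT cells, and its 2 brighter probe sets gave 0.46 and 0.47 on replicate 2. Ndufa8, a supernumerary subunit of the intermembrane side, read 11.16, 11.40 and 11.27 in Trip12 mut/mut cells, against 11.09 and 11.15 in WT cells. All mutant arrays lay above both WT arrays, replicate 1 by 0.01, and the difference was 0.16 (SE 0.09, 95% interval -0.08 to 0.40). Ndufa6, a supernumerary subunit of the matrix arm named because its groups did not overlap, was lower on all mutant arrays, at 10.82, 10.62 and 10.77 in Trip12 mut/mut cells against 10.86 and 10.87 in WT cells, with a difference of -0.13 (SE 0.08). The remaining members of complex I had differences between -0.15 (Ndufb9) and 0.14 (Ndufv3).

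Promoter sequences show which of these genes carry letters that factors of mitochondrial genes are known to bind. RefSeq windows of the 250 bases before the start (GRCm38.p6) were matched to 66 of the 81 members, in 71 windows. The NRF1 letters CGCATGC or, on the other strand, GCATGCG were in 8 of the 71 windows (11.3%), against 3.02% of all 32851 windows. The ETS letters CCGGAAG or CTTCCGG were in 12 (16.9%), against 6.91%, the YY1 letters AAGATGG or CCATCTT in 1 (1.41%), against 4.49%, and the letters TATAAA or TTTATA in 8 (11.3%), against 12.4%. The 50 bases after the start were left out of the search, so these shares say nothing about letters there. A match describes the letters and is not a binding site.

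The sequences of 4 members are shown for contrast, 3 whose mutant and WT arrays did not overlap and Atp5g1, which had the most negative difference. They are the windows of Ndufa8 (chr2:36049339-36049588, minus strand), Ndufa6 (chr15:82354292-82354541, minus strand), Atp5e (chr2:174464102-174464351, minus strand) and Atp5g1 (chr11:96075632-96075881, minus strand), written 5′ to 3′ along the gene. Capitals mark the motif letters. In Ndufa8, which read higher, the NRF1 letters lie on both strands in overlapping matches 9 and 8 bases before the start, and in Ndufa6, which read lower, 1 NRF1 match lies 83 bases before it. Atp5e has 1 ETS match 102 bases before the start, and the window of Atp5g1 has 0 matches to the 4 motifs.
Ndufa8: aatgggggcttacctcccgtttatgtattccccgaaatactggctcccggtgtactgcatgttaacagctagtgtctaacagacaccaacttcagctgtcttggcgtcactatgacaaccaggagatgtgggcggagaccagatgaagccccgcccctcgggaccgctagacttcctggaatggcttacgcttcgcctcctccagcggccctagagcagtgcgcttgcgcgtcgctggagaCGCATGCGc
Ndufa6: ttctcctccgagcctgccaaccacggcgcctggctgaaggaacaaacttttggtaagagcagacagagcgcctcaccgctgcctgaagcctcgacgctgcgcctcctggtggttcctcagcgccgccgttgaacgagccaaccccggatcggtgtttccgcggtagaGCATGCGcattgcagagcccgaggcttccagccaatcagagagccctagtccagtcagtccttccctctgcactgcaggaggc
Atp5e: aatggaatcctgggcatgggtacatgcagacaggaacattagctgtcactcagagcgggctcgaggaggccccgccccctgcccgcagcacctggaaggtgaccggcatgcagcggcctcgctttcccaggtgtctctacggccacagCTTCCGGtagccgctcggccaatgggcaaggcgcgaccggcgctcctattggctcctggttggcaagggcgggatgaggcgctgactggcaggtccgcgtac
Atp5g1: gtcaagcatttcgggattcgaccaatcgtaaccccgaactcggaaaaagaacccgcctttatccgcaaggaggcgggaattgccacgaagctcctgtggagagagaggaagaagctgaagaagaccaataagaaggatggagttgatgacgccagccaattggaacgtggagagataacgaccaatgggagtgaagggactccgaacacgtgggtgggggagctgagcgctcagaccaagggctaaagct

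Complex II, which is also an enzyme of the tricarboxylic acid cycle and takes electrons from succinate, was the most even of the complexes, and all its subunits are nuclear. Sdha, the subunit that binds the flavin, read 11.08, 11.20 and 11.06 in Trip12 mut/mut cells, against 11.06 on both WT arrays. Sdhb, the iron-sulphur subunit, read 10.75, 10.71 and 10.79, against 10.71 and 10.79, and the membrane anchors were as close, with Sdhc at 9.74, 9.84 and 9.67, against 9.74 and 9.76, and Sdhd at 10.69, 10.68 and 10.67, against 10.68 and 10.67. No deviation from WT exceeded 0.2 on any mutant array. The 95% interval of the difference was -0.12 to 0.23 for Sdha and -0.12 to 0.12 for Sdhd.

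In complex III, which passes electrons from ubiquinol to cytochrome c, Uqcrc2 was the member that stood furthest from WT. Uqcrc2 encodes a core protein of the matrix side and read 11.38, 10.98 and 11.16 on Trip12 mut/mut replicates 1, 2 and 3, against 11.45 and 11.41 on the WT arrays. All mutant arrays were lower than both WT arrays, replicate 1 by 0.03. The mean was 11.17 ± 0.20 in Trip12 mut/mut cells (SD, n = 3) and 11.43 ± 0.03 in WT cells (SD, n = 2), a difference of -0.26 (SE 0.13, limma adjusted p = 0.748). It was -0.36 without replicate 1 (limma adjusted p = 0.101) and -0.16 without replicate 2. The other bright probe set of Uqcrc2 read 11.11, 11.18 and 11.04 in Trip12 mut/mut cells, against 11.14 and 11.12 in WT cells, with a difference of -0.018, overlapping groups and replicate 2 above WT.

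Uqcrc1, for the other core protein, read 11.92, 12.07 and 11.86 in Trip12 mut/mut cells, against 11.90 and 11.91 in WT cells, so on replicate 2 it was above WT, where the 2 probe sets of Uqcrc2 deviated by -0.45 and 0.05. Uqcrfs1, for the Rieske iron-sulphur protein, read 10.77, 10.73 and 10.58, against 10.80 and 10.77, and was lowest on replicate 3. Uqcrq, Uqcr10 and Uqcrb encode small subunits. Uqcrq was lower on all mutant arrays by small steps, at 11.71, 11.65 and 11.68 in Trip12 mut/mut cells against 11.73 and 11.72 in WT cells. Uqcrb read 13.48, 13.77 and 13.49, against 13.52 and 13.45, and Uqcr10 read 11.23, 11.47 and 11.30, against 11.22 and 11.30, so both were highest on replicate 2, where the second probe set of Uqcrb gave 0.30 and that of Uqcr10 gave -0.53.

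Complex IV, cytochrome c oxidase, hands the electrons to oxygen, and several of its subunits exist as a widely expressed form and a form of muscle, lung or testis. Cox7c, for a widely expressed small subunit, had a difference of -0.26 (SE 0.13, limma adjusted p = 0.748). It read 7.98, 7.70 and 7.64 in Trip12 mut/mut cells, against 8.11 and 7.95 in WT cells, with replicates 2 and 3 below both WT arrays and replicate 1 between them. The difference was -0.36 without replicate 1 (limma adjusted p = 0.0949), and both of its probe sets were lower on replicates 2 and 3. Cox5a and Cox5b encode subunits on the matrix side and, with the brightest probe set, were low on replicate 2 alone. Cox5a read 12.94, 12.57 and 12.95 in Trip12 mut/mut cells against 12.89 and 12.93 in WT cells, and Cox5b 13.31, 12.89 and 13.32 against 13.30 and 13.31. The other bright probe sets of Cox5a were below both WT arrays on replicate 3 too. They deviated by -0.27 and -0.21 on replicate 2 and by -0.16 and -0.07 on replicate 3. The probe sets of Cox5b above the median of all probe sets ran from -0.41 to 0.02 on replicate 2.

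The positive end of complex IV was held by 2 tissue forms and 1 widely expressed subunit. Cox6b2, known as the testis form of its subunit, read 8.47, 9.14 and 8.96 on Trip12 mut/mut replicates 1, 2 and 3, against 8.59 and 8.68 on the WT arrays. Replicates 2 and 3 were above both WT arrays, at 1.42 and 1.26 times the WT mean, and replicate 1 was below both. The mean was 8.86 ± 0.35 in Trip12 mut/mut cells (SD, n = 3) and 8.63 ± 0.07 in WT cells (SD, n = 2), a difference of 0.23 (SE 0.22, limma adjusted p = 0.750), and it was 0.42 without replicate 1 (limma adjusted p = 0.0874) and 0.09 without replicate 2. Cox7a1, known as the heart and skeletal muscle form, read 8.68, 9.05 and 8.96, against 8.71 and 8.74, with the same order of arrays and a difference of 0.17 (SE 0.13), or 0.28 without replicate 1 (limma adjusted p = 0.108) and 0.09 without replicate 2. Cox8a, the widely expressed form, read 11.65, 11.93 and 11.85, against 11.70 and 11.67, and its 2 bright probe sets deviated by 0.25 and -0.19 on replicate 2.

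With the brightest probe set of each gene, the other isoforms did not share this order. The counterparts Cox6b1, at 12.49, 12.39 and 12.58 in Trip12 mut/mut cells and 12.49 on both WT arrays, and Cox7a2, at 12.87, 13.06 and 12.82 against 12.87 and 12.86, had differences of -0.0010 and 0.05. The second probe set of Cox6b1 did share the order, at 12.27, 12.45 and 12.42 in Trip12 mut/mut cells against 12.28 on both WT arrays. That of Cox7a2 did not, at 12.32, 12.08 and 12.32 against 12.34 and 12.33. The contrast between forms thus depends on the probe set for Cox6b1. Cox7a2l read 11.44, 11.57 and 11.42, against 11.41 and 11.47. For the subunit 4 pair, Cox4i1 read 13.04, 12.93 and 13.21 in Trip12 mut/mut cells against 13.03 and 13.06 in WT cells, and Cox4i2, known as the lung form, was dim at 4.61 on all 3 mutant arrays against 4.83 and 4.55.

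Cox6a1 read 13.75, 13.64 and 13.87 in Trip12 mut/mut cells, against 13.74 on both WT arrays. The muscle forms Cox6a2 and Cox8b differed little between arrays, Cox6a2 at 6.29, 6.41 and 6.30 against 6.25 and 6.30, and Cox8b, which was dim, at 4.50, 4.58 and 4.51 against 4.58 on both WT arrays. Cox7b2 had a difference of -0.39 (SE 0.34) from readings near the median of all probe sets or below it, of 5.65, 5.35 and 4.61 in Trip12 mut/mut cells, against 5.61 and 5.58 in WT cells, with replicate 3 alone far off. Cox8c, a testis form, read 7.45, 7.42 and 7.21, against 7.38 and 7.30. Differences of this family thus ran from -0.39 to 0.23, with both ends in tissue forms.

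**Figure D5:**
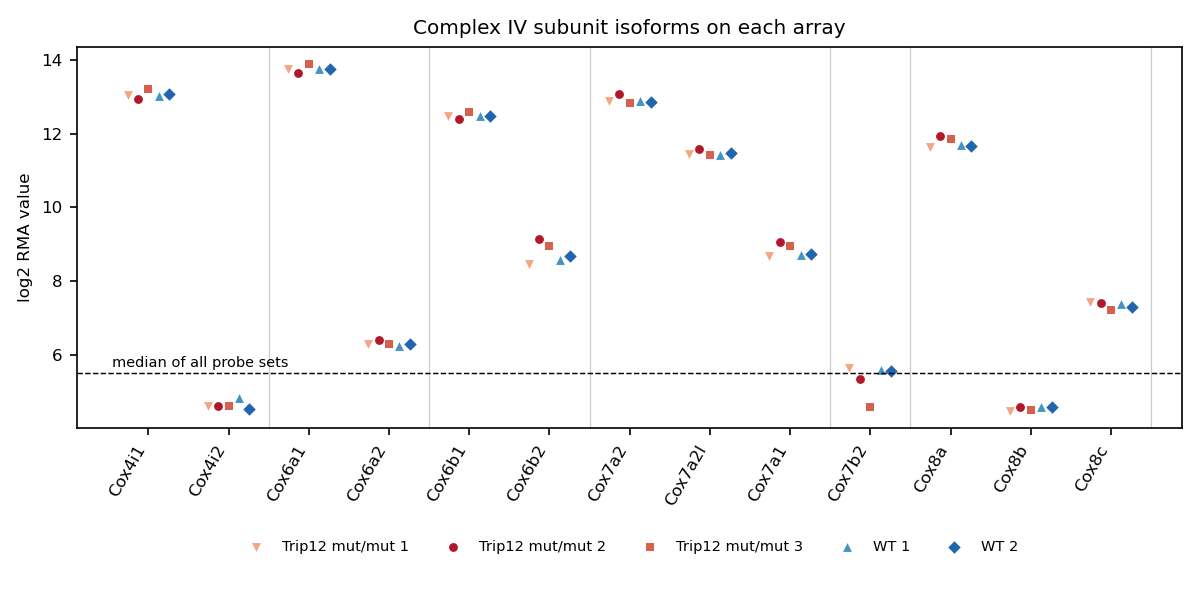
Log2 RMA values of the complex IV isoform groups on each array, with the median of all probe sets (5.52) dashed; levels of different genes are not comparable. Cox6b2 and Cox7a1 are above WT on Trip12 mut/mut replicates 2 and 3, and Cox4i2 and Cox8b stay below the dashed line on every array.

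Genes that work with the chain were read from lists, in each of which 0 genes passed in limma in either comparison and 0 had an unadjusted p below 0.05 over 5 arrays. The 43 assembly factors had a median difference of -0.015, or -0.04 without the array labelled replicate 1. Among them Ndufaf4, a complex I assembly factor, read 10.41, 10.16 and 10.01 in Trip12 mut/mut cells, against 10.52 and 10.46 in WT cells (difference -0.30, SE 0.13), and Bcs1l, which inserts the Rieske protein, read 8.07, 7.98 and 7.97, against 8.13 and 8.23 (difference -0.17, SE 0.06). All mutant arrays were lower than WT in both. The 10 other chain components had a median of 0.014, with Etfdh, which feeds electrons from fatty acid oxidation to ubiquinone, at 9.02, 9.50 and 9.45, against 8.98 and 9.05, and the testis cytochrome c gene Cyct at 8.33, 8.11 and 8.12, against 8.33 and 8.46.

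The 25 genes of the tricarboxylic acid cycle and pyruvate dehydrogenase had a median of -0.07. Dlat, for a core subunit of pyruvate dehydrogenase, read 9.51, 9.002 and 9.17 in Trip12 mut/mut cells, against 9.59 and 9.49 in WT cells, and Idh2 read 9.06, 9.19 and 9.19, against 9.01 and 9.02. The 19 regulators had the lowest median of these lists, at -0.12, and at -0.31 on replicate 2 alone. Tfb1m, a methyltransferase of the mitochondrial ribosome, read 8.75, 7.89 and 8.24 in Trip12 mut/mut cells, against 8.71 and 8.84 in WT cells, and Mterf1a read 7.34, 6.79 and 7.25, against 7.47 and 7.39. The 6 ADP/ATP carriers and uncoupling proteins had a median of -0.02, with Slc25a5 at 13.14, 12.96 and 12.73, against 13.17 and 13.12, and Slc25a31 at 9.09, 9.57 and 9.14, against 9.09 and 9.002. None of the 13 mitochondrially encoded subunits was matched to a probe set by symbol, and they were not analysed here.

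Markers of the feeder cell type moved with the mutant arrays 2 and 3. The mean over 28 fibroblast markers was 10.29, 10.71 and 10.72 on Trip12 mut/mut replicates 1, 2 and 3, against 10.31 on both WT arrays. Over 5 arrays 0 of 28 passed, and without replicate 1 and dim genes 8 of 27 were higher and 1 lower at a limma adjusted p below 0.05, where 3.29% and 1.34% of all genes were. Sparc, a matrix protein, read 12.01, 12.57 and 12.48 in Trip12 mut/mut cells, against 11.97 and 12.01 in WT cells, and Vim read 13.18, 13.58 and 13.62, against 13.15 and 13.19. The mean over 10 embryonic stem cell markers was 11.37, 11.22 and 11.35, against 11.37 and 11.38, and only Utf1 of these passed without replicate 1, at 10.93, 10.23 and 10.07, against 10.92 and 10.98, while Esrrb read 8.68, 9.26 and 9.39, against 8.74 and 8.77. Their part in the values of the respiratory chain genes was not tested.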

How the data were processed

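The deposited table holds log2 values, 1 per probe set and array, made with RMA per the submitters' processing notes; the version of RMA was not stated there, and no scanner file was used. Of 45101 probe sets, 64 array controls were left out of the tests. Of the other 45037, 34945 had 1 gene symbol in the platform annotation, 932 had several and 9160 none; 34741 symbols were brought up to date through their gene numbers and the RefSeq gene table (GRCm38.p6), and the members are the same 81 genes with platform or updated symbols. A further 9 probe sets matched the rule but carried several symbols and were not used. They include those of Ndufa11 and Ndufs6, which are therefore not among the 81 members, and others of Ndufb4, whose only probe set used was dim. Precision is limited by the number of arrays, and RMA gives no detection call.

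The test was limma 3.58.1 (R 4.3.3; two-sided, moderated by eBayes after lmFit, with a single term for genotype), with Benjamini-Hochberg adjustment over all genes tested and a threshold of 0.05. The scripts were tested on simulated data. Figures and sequence searches used Python 3.11.15 and matplotlib 3.10.9. Deviations are from the mean of both WT arrays, and those beyond 0.2 were counted. The text names, in complexes I, III, IV and V, the 3 members with the most positive and the 3 with the most negative difference whose mean reached the median of all probe sets, all complex II genes, all isoform groups, and in each other list the 2 genes with the smallest unadjusted p; Pou5f1, the members listed for their array order or probe sets, and other members given with values outside this rule (Atp5b, Atp5c1, Atp5d, Atp5o, Atp5pb, Ndufa6 and Ndufs8) were chosen after their values were seen. The members and the lists (assembly factors, other chain components, mitochondrially encoded subunits, tricarboxylic acid cycle, regulators, carriers, fibroblast and embryonic stem cell markers) were chosen with earlier results of these data known. Replicate numbers 1 and 2 are in both groups, but the deviations of same-numbered arrays had correlations of -0.0483 and -0.0844 over genes, and the arrays were not treated as paired. Alternatives were each array left out, a filter on dim genes, quantile normalization, centring of array medians, a variance trend with robust shrinkage, array weights, the replicate number as a block, and other choices of probe set.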

Additional observations from a re-analysis of the deposited data

How the results depend on the processing

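The count of members called was 0 in the main comparison and under all alternatives run. The count over all genes was 539, and over the lists beside the members 10 (9 fibroblast and 1 embryonic stem cell marker), when the array labelled Trip12 mut/mut replicate 1 and dim genes were both left out, and 0 in every other comparison. The members' median difference of -0.0010 was -0.015 after quantile normalization, -0.015 after centring, -0.018 with array weights, -0.027 with the mean of all probe sets and -0.054 with the probe set of largest SD. The last 2 settings gave -0.021 and -0.027 for complex I and -0.0043 and -0.0064 for complex IV, which was also at -0.014 after quantile normalization, -0.00036 after centring and -0.042 with the replicate block. Complex V was at -0.0099 with the replicate block, where it no longer had the lowest median, and -0.21 with the probe set of largest SD. The block is the same as leaving out Trip12 mut/mut replicate 3, which has no WT partner, and it called 0 genes. Leaving out 1 array at a time gave medians from -0.013 to 0.0092 for all members, -0.021 to 0.013 for complex I, 0.0018 to 0.024 for complex II, -0.015 to 0.048 for complex III, -0.042 to 0.0093 for complex IV and -0.11 to -0.0099 for complex V. Single named genes kept within the spread between replicates in 578 of 596 values under the alternatives, and in 51 the sign differed. Some alternatives cannot change a fitted difference: the variance trend with robust shrinkage, the updated symbols, and the filter on dim genes alone. Their values were within the spread by construction. That spread also includes the differences among the mutant arrays, so the count of 578 does not measure robustness. With 3 and 2 arrays, the members' intervals, which are not adjusted over genes, had a median half-width of 0.229. Smaller differences could not be told from 0 for a typical member. Larger ones did not pass after adjustment either. Over 5 arrays 0 genes passed, although the largest difference of any gene was 2.05 in size. Groups of 2 and 3 arrays are too small to test single arrays as outliers.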
